A study of Mus musculus with 7 samples.

Results

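Glycolysis and glycogen breakdown run through enzymes that mammals encode as isozymes, separate genes whose proteins catalyse the same step. Described here are 10 isozyme genes of 5 steps in mouse hindlimb tendon, chosen by gene symbol as pairs of a muscle form and a ubiquitous form. The muscle forms were Pygm, Pfkm, Aldoa, Pgam2 and Eno3, and the ubiquitous forms were Pygl, Pfkl, Aldoc, Pgam1 and Eno1. All 10 were found among the 42689 annotated genes of the deposited tables, and 9 passed the filter on low counts that left 16028 features to test. Aldoc did not pass it.

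Glycogen phosphorylase releases glucose 1-phosphate from stored glycogen. Phosphofructokinase then commits the sugar to glycolysis, aldolase splits it into a pair of triose phosphates, phosphoglycerate mutase moves a phosphate group along the molecule, and enolase forms the high-energy phosphoenolpyruvate used to make ATP. Skeletal muscle fibres carry large amounts of the muscle forms, while fibroblasts, leukocytes and most other cells rely on the liver-type or ubiquitous forms. The division is not absolute: Aldoa, the muscle aldolase, is also the aldolase of many other cells, and Aldoc is best known from brain.

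The study addressed abnormal cartilage and bone formation after musculoskeletal injury. RNA was sequenced from 7 libraries of hindlimb tendon of mice of C57BL/6 background, and no label gives an age or an altered allele. In the tenotomy group (n = 2 libraries) the Achilles tendon of the left leg had been cut at its midpoint, together with a partial-thickness burn of 30% of the body surface on the back, made by 18 s of contact with aluminium at 60 °C. The injured site was taken 3 weeks later. The contralateral libraries (n = 3) held the uncut tendon of the right leg of mice with the same burn and cut, at 3 weeks. The uninjured group (n = 2) came from wild-type mice with neither burn nor cut, with no time given. The burn and the cut were always given together, so that their parts cannot be told apart. The labels say that tissue was taken between the gastrocnemius muscle and the heel bone, and they do not say whether libraries came from separate animals or pools. The p-values below therefore measure the spread between these libraries, which may be technical.

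Library totals ranged from 25927171 to 36725106 estimated counts, and the 5 features with the most counts held 76.4% to 81.4% of them. The uninjured libraries stood apart from each other: over all tested genes in log2 CPM (counts relative to the scaled library size), uninjured replicate 1 lay at a distance of 59.6 from tenotomy replicate 1 and 114 from uninjured replicate 2, which lay at 64.5 from contralateral replicate 2. The labels do not settle why the library labelled uninjured replicate 1 lies near the tenotomy libraries, and no altered gene allows a check of its label. All 9 tendon markers examined had counts, and their summed level was 548 to 772 CPM in the contralateral libraries, 2937 and 2951 CPM at the tenotomy site, and 2701 and 2478 CPM in uninjured replicates 1 and 2. The single tendon markers did not all follow this sum, as given below. All 25 skeletal muscle markers also had counts in all 7 libraries, with a summed level of 25149 to 28032 CPM in the contralateral libraries, 2237 and 2257 CPM at the tenotomy site, and 2835 and 18959 CPM in uninjured replicates 1 and 2. The part of these differences in muscle RNA in the results below was not tested. In bulk tissue, fewer cells of a type and less RNA per cell cannot be told apart.

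Between the tenotomy site and the contralateral tendon, all 5 muscle isozymes fell and the ubiquitous isozymes Eno1 and Pgam1 rose, while Pfkl and Pygl did not pass the test. The falls of the muscle isozymes ranged from -2.72 (Aldoa) to -3.13 (Eno3) on the log2 scale, with a median of -2.93, and the median over all 16028 genes was -0.00. Adjusted p ran from 0.0167 to 0.0195 for these 5 in edgeR's quasi-likelihood test of all 7 libraries with Benjamini-Hochberg adjustment. In that test 29% of all genes passed an adjusted p of 0.05, with 15.4% lower and 13.6% higher at the tenotomy site. The median of the 4 tested ubiquitous isozymes was 0.57, with a range of 0.10 (Pfkl) to 1.21 (Pgam1).

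**Figure D1:**
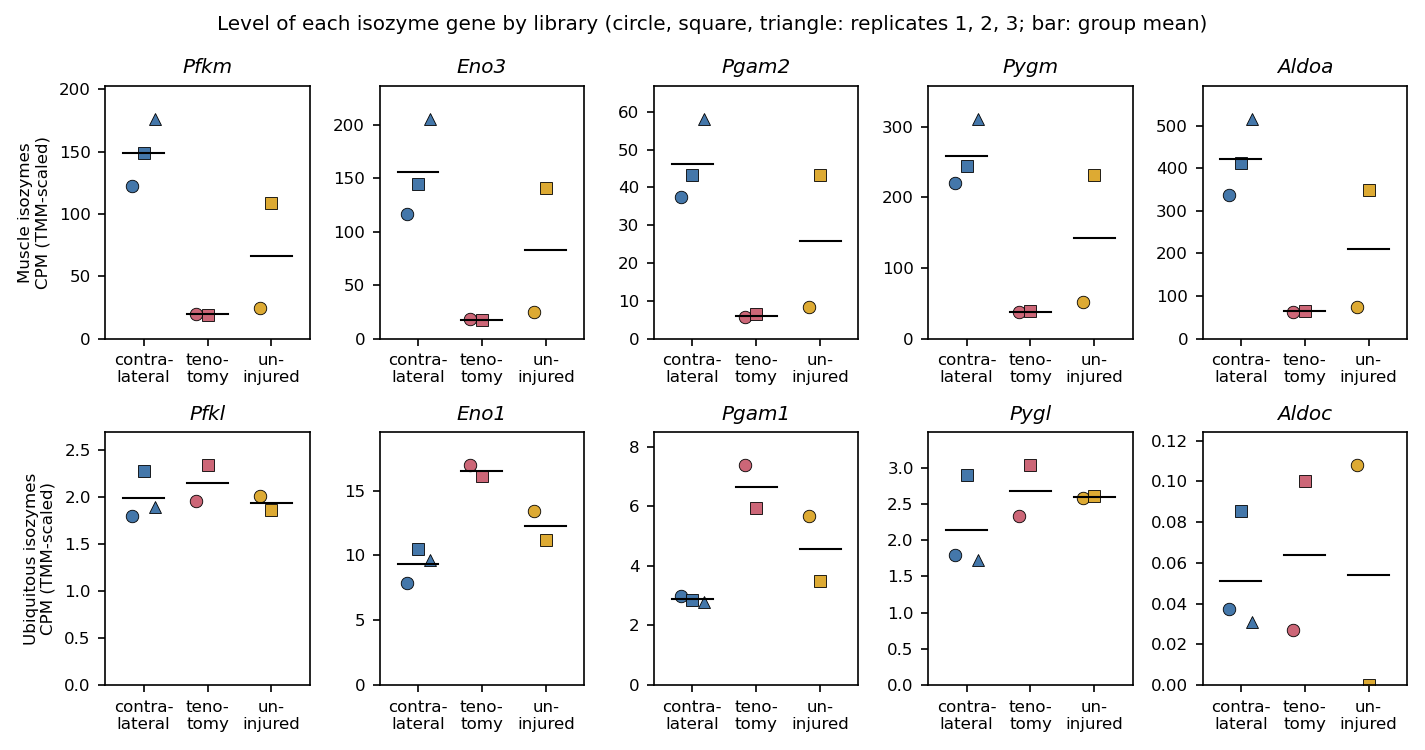
Level of each isozyme gene in every library, in CPM after TMM scaling of the library totals, on linear axes that start at 0, with group means as bars. The tenotomy libraries lie below every other library for the 5 muscle isozymes in the upper row, and above every other library for Eno1 and Pgam1 in the lower row.

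Glycogen phosphorylase is the entry from stored glycogen. Pygm, the muscle form and the enzyme lacking in McArdle disease, measured 220, 244 and 311 CPM in contralateral replicates 1 to 3, 37.3 and 39.3 CPM in tenotomy replicates 1 and 2, and 52.3 and 232 CPM in uninjured replicates 1 and 2. The contralateral libraries and uninjured replicate 2 were high, and the tenotomy libraries and uninjured replicate 1 were low, with no overlap between the tenotomy and contralateral groups. The mean was 258 CPM ± 47.4 (SD, n = 3) contralaterally and 38.3 CPM ± 1.42 (SD, n = 2) at the tenotomy site, a log2 fold change of -2.75 with a standard error of 0.59 (edgeR adjusted p = 0.0178). Pygl, the liver form, measured 1.80, 2.90 and 1.73 CPM contralaterally, 2.34 and 3.03 CPM at the tenotomy site and 2.59 and 2.61 CPM in the uninjured libraries. The 3 groups overlapped, and the log2 fold change of 0.31 (SE 0.25) did not pass the test (edgeR adjusted p = 0.393). These values rest on 48 to 102 counts of Pygl per library, against 1179 to 10064 counts of Pygm.

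Phosphofructokinase is the main control point of glycolysis. Pfkm, the muscle form, measured 123, 149 and 176 CPM in the contralateral libraries, 19.5 and 19.1 CPM at the tenotomy site, and 24.5 and 109 CPM in uninjured replicates 1 and 2. All contralateral libraries were above all others, and both tenotomy libraries were below all others. The log2 fold change from contralateral to tenotomy was -2.95 with a standard error of 0.60 (edgeR adjusted p = 0.0167). Pfkl, the liver form, measured 1.80, 2.28 and 1.89 CPM contralaterally, 1.96 and 2.33 CPM at the tenotomy site and 2.01 and 1.86 CPM in the uninjured libraries, from 48 to 80 counts. Its groups overlapped in all 3 comparisons of CPM, and its log2 fold change at the tenotomy site was 0.10 (SE 0.18, edgeR adjusted p = 0.704). With each gene's TPM (the deposited transcript abundance, a level per length) turned into counts in place of the estimated counts, the log2 fold change of Pfkl was 0.69 (edgeR adjusted p = 0.0491, with 19.6% of all genes called), so that its call depended on the unit.

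Aldolase had the most abundant member and the least abundant one. Aldoa measured 337, 411 and 516 CPM contralaterally, 62.6 and 65.2 CPM at the tenotomy site, and 74.2 and 348 CPM in uninjured replicates 1 and 2. The tenotomy libraries again lay below all others, and uninjured replicate 2 lay within the contralateral range. The log2 fold change was -2.72 with a standard error of 0.62 (edgeR adjusted p = 0.0195). Aldoc, the brain-enriched form, had 1, 3 and 1 counts in the contralateral libraries, 1 and 3 at the tenotomy site and 3 and 0 in the uninjured libraries. The count of 0 allows up to 3 counts, or 0.103 CPM, in uninjured replicate 2 by counting error alone, so no difference in Aldoc was detectable at this depth.

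Aldoa transcripts start at several places along the gene, and the most upstream starts are known for their use in muscle. Transcripts with a 5′ end more than 500 bases upstream of that of Aldoa-201 held 39.3%, 40.0% and 40.6% of the gene's estimated counts in the contralateral libraries. They held 36.0% and 32.4% at the tenotomy site and 37.1% and 41.6% in uninjured replicates 1 and 2. The tenotomy libraries had the lowest shares, by a few percent of the total. The split of reads between overlapping transcripts is an estimate of the authors' quantification.

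Both phosphoglycerate mutase genes passed the test, in opposite directions. Pgam2, the muscle form, measured 37.5, 43.2 and 58.1 CPM contralaterally, 5.58 and 6.60 CPM at the tenotomy site, and 8.26 and 43.3 CPM in uninjured replicates 1 and 2. Pgam1, the form of most other cells, measured 3.00, 2.85 and 2.78 CPM contralaterally, 7.37 and 5.93 CPM at the tenotomy site, and 5.68 and 3.48 CPM in uninjured replicates 1 and 2. For both genes uninjured replicate 1 lay nearest to the tenotomy libraries and uninjured replicate 2 nearest to the contralateral ones, and the tenotomy and contralateral groups did not overlap. The log2 fold change was -2.93 (SE 0.65, edgeR adjusted p = 0.0187) for Pgam2 and 1.21 (SE 0.22, edgeR adjusted p = 0.0167) for Pgam1. The mean of Pgam1 was 2.88 CPM ± 0.111 (SD, n = 3) contralaterally and 6.65 CPM ± 1.02 (SD, n = 2) at the tenotomy site. Without overlap between the groups, 31.8% of all genes were lower and 31.9% were higher at the tenotomy site.

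Enolase was the step whose forms came nearest to each other in TPM at the tenotomy site. Eno3, the muscle form, measured 116, 145 and 206 CPM contralaterally, 18.2 and 17.3 CPM at the tenotomy site, and 24.4 and 141 CPM in uninjured replicates 1 and 2. Its log2 fold change was -3.13 (SE 0.71, edgeR adjusted p = 0.0192), the lowest of the 9 tested isozymes. Eno1, the ubiquitous form, measured 7.87, 10.5 and 9.68 CPM contralaterally, 16.9 and 16.1 CPM at the tenotomy site, and 13.4 and 11.2 CPM in uninjured replicates 1 and 2. Its 3 groups did not overlap in CPM, with the tenotomy site highest and the contralateral tendon lowest. The log2 fold change of Eno1 was 0.82 (SE 0.17, edgeR adjusted p = 0.0172).

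The call of Eno1 depended on the unit. In TPM, Eno1 measured 1.00, 1.54 and 1.20 contralaterally and 1.47 and 1.47 at the tenotomy site, and these groups overlapped. The annotated transcript of 773 bases had 28.6, 59.2 and 68.0 counts contralaterally, 22.0 and 8.66 at the tenotomy site and 8.84 and 47.4 in uninjured replicates 1 and 2, high and low in the same libraries as Eno3. With counts made from TPM the log2 fold change of Eno1 was 0.29 and did not pass the test (edgeR adjusted p = 0.411). Without that transcript it was 1.06 (edgeR adjusted p = 0.0167), and Eno1 measured 0.681, 1.04 and 0.706 TPM contralaterally and 1.32 and 1.39 TPM at the tenotomy site. Whether reads of Eno3 were assigned to the short transcript was not tested.

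**Figure D2:**
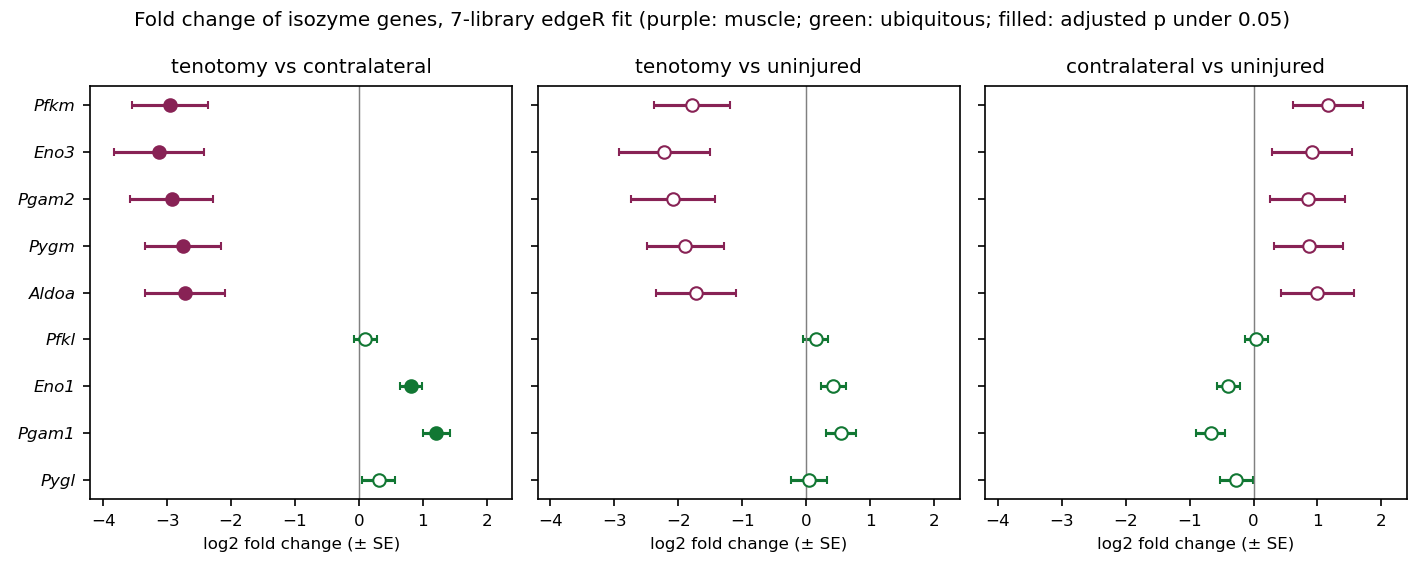
Log2 fold change and standard error of the 9 tested isozyme genes in the 3 comparisons of the 7-library edgeR fit, on a common axis. The filled points, with an adjusted p under 0.05, are 7 genes of the comparison of tenotomy with contralateral, and none of the other comparisons has one.

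Promoters are shown for Pgam2 with Pgam1 and Pygm with Pygl, the pairs in which both members have a single RefSeq window and the muscle form fell. They hold the 250 bases before the start (GRCm38.p6), for Pgam2 at chr11:5803797-5804046 on the minus strand, Pgam1 at chr19:41911621-41911870 on the plus strand, Pygm at chr19:6384158-6384407 on the plus strand and Pygl at chr12:70227684-70227933 on the minus strand. Capitals mark the motifs searched on both strands: the E-box CAGCTG, the MEF2 motif, ACGTG (the core of the site of hypoxia-inducible factors) and GGGCGG (the GC box).
Pgam2: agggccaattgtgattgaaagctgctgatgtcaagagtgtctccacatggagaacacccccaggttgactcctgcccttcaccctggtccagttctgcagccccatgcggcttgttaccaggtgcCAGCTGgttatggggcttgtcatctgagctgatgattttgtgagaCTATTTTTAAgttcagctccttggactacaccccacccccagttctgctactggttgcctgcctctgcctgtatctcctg
Pgam1: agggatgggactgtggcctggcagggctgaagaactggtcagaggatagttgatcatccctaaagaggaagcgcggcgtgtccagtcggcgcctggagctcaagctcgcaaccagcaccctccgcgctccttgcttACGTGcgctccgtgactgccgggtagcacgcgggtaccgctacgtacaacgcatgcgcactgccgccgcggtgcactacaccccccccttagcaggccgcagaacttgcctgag
Pygm: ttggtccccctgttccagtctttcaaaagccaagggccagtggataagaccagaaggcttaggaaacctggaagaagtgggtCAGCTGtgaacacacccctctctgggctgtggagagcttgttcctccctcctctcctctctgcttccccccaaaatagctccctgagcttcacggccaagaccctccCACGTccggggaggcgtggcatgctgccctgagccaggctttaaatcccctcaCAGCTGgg
Pygl: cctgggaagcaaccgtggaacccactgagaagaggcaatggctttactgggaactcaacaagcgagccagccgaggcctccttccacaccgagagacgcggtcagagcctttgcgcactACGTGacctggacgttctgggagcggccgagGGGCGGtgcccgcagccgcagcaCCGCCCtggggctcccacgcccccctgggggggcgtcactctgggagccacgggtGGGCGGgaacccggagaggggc
Both printed muscle promoters held CAGCTG, at 1 place in Pgam2 and 2 in Pygm, and that of Pgam2 held 1 MEF2 match (CTATTTTTAA). None of the windows of the other muscle forms, Eno3, Pfkm and Aldoa, held CAGCTG or the MEF2 motif, so neither was shared by the muscle forms. Among 32851 RefSeq windows of the same length, 13.0% held CAGCTG and 2.92% held the MEF2 motif. Pgam1 and Pygl held 1 ACGTG each, as did Pygm, and Pygl held 3 GC boxes. ACGTG was in 16.6% and GGGCGG in 32.7% of all windows. The motifs do not overlap each other here, and a match is a description of the letters and not a binding site.

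In the GENCODE M21 annotation (GRCm38) all 10 isozymes are protein-coding genes. The muscle forms lie at chr19:6384399-6398459 (Pygm, plus strand), chr15:98092589-98132451 (Pfkm, plus), chr7:126795234-126800751 (Aldoa, minus), chr11:5801640-5803733 (Pgam2, minus) and chr11:70657202-70662513 (Eno3, plus). The ubiquitous forms lie at chr12:70190811-70231488 (Pygl, minus), chr10:77986947-78010083 (Pfkl, minus), chr11:78322968-78327781 (Aldoc, plus), chr19:41911923-41918660 (Pgam1, plus) and chr4:150236721-150248879 (Eno1, plus). No pair shares a chromosome, so the members are separate loci. The windows shown end at the RefSeq start, which differs from the GENCODE gene end and for Pygm and Pygl lies inside the GENCODE gene.

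CpG content differed between the promoters. The ratio of observed to expected CpG was 0.0571 for Pgam2, 0.191 for Pygm and 0.156 for Eno3, with 1, 4 and 3 CpG in the 250 bases. It was 0.860 for Pgam1, 0.670 for Pygl and 0.595 for Pfkl, with 22, 20 and 13 CpG. The median of all windows was 0.373, so that these 3 muscle genes lay below it and these 3 ubiquitous genes above it. Aldoa had a most upstream window with no CpG and a pair of inner windows at 0.743 and 0.668, the 4 windows of Pfkm ranged from 0.172 to 0.440, the 3 of Eno1 from 0.469 to 0.663, and both of Aldoc (0.265 and 0.165) lay below the median. The sequence of Eno3, Pfkl and the genes with several starts is not printed.

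Levels of different genes can be compared in TPM. In the contralateral libraries the order of mean TPM was Aldoa (67.4), Eno3 (18.0), Pygm (14.5), Pgam2 (11.0), Pfkm (7.89), Eno1 (1.24), Pgam1 (0.258), Pygl (0.158), Pfkl (0.0889) and Aldoc (0.00780). Eno3 and Pygm overlapped, as did Pgam1 with Pygl and Pygl with Pfkl, and the other neighbours did not. At the tenotomy site Aldoa was again first (9.46), followed by Pygm (2.33), Eno3 (2.06), Eno1 (1.47), Pgam2 (1.40) and Pfkm (1.00). The ubiquitous Eno1 thus stood among the muscle genes, and its 2 libraries lay within the range of Pgam2, 1.21 to 1.58 TPM.

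Within each pair, the muscle form outweighed the ubiquitous form in TPM in every library of the 4 pairs with both members detected. The log2 ratio of Pfkm to Pfkl was 6.25, 6.30 and 6.95 contralaterally, 2.86 and 2.86 at the tenotomy site, and 3.12 and 5.25 in uninjured replicates 1 and 2. The log2 ratio of Pgam2 to Pgam1 was 5.09, 5.36 and 5.82 contralaterally, 1.01 and 1.55 at the tenotomy site, and 1.95 and 5.07 in uninjured replicates 1 and 2. In both pairs the tenotomy libraries were lowest, uninjured replicate 1 was next and the contralateral libraries were highest. The mean difference between tenotomy and contralateral in log2 ratio was -3.64 for Pfkm to Pfkl, -4.14 for Pgam2 to Pgam1, -3.37 for Eno3 to Eno1 and -3.29 for Pygm to Pygl. The tenotomy and contralateral groups did not overlap in any of the 4, nor did they for the muscle form alone. In CPM, 31.8% of all genes were lower at the tenotomy site without overlap. Eno3 to Eno1 came nearest to parity, with log2 ratios of 0.44 and 0.53 at the tenotomy site against 3.56 to 4.13 contralaterally. No ratio is given for Aldoa to Aldoc, whose counts of 0 to 3 do not allow one.

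**Figure D3:**
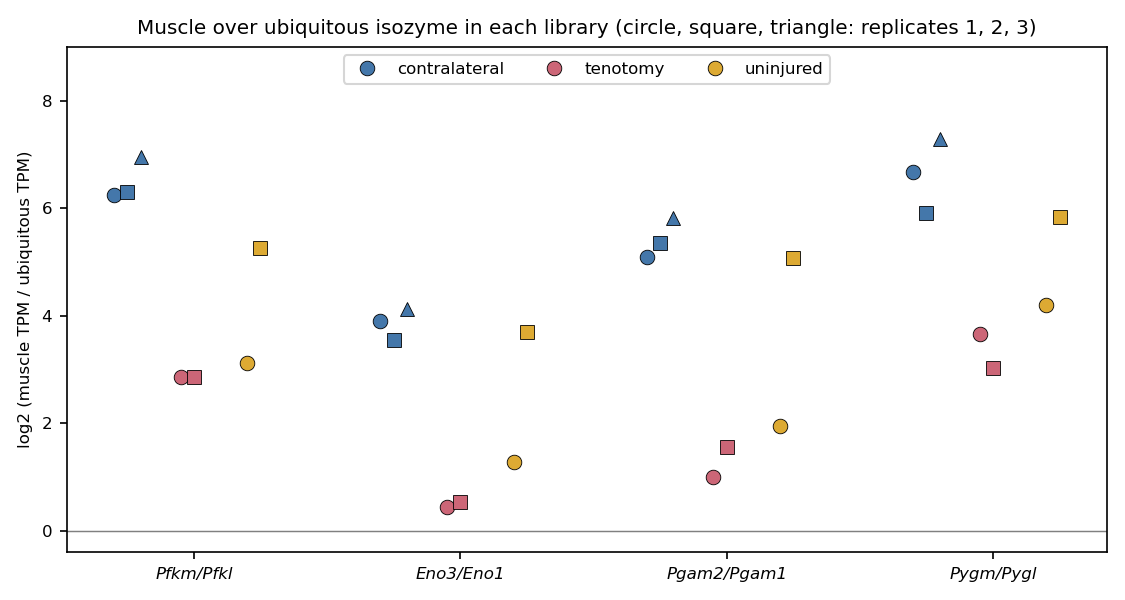
Log2 ratio of muscle to ubiquitous TPM for 4 isozyme pairs, with 1 point per library. In each pair the tenotomy libraries are lowest and uninjured replicate 1 is next, at 1.28 for Eno3 to Eno1 and 4.19 for Pygm to Pygl.

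For the 4 steps other than aldolase, adding the remaining isozymes gives the make-up of the step's RNA. Pfkp, the platelet-type phosphofructokinase, rose at the tenotomy site (log2 fold change 0.63, SE 0.15, edgeR adjusted p = 0.0233), as did Eno2, the neuronal enolase (1.74, SE 0.46, edgeR adjusted p = 0.0285). Pygb, the brain glycogen phosphorylase, had a log2 fold change of 0.35 and did not pass (edgeR adjusted p = 0.0855). Pfkm made up 95.6% to 96.8% of phosphofructokinase TPM contralaterally and 68.7% and 69.7% at the tenotomy site, where Pfkp held 21.8% and 20.8%. Eno3 made up 91.7% to 94.3% of enolase TPM contralaterally and 53.8% and 55.4% at the tenotomy site, where Eno1 held 39.6% and 38.3%. Pgam2 made up 97.1% to 98.3% of the mutase TPM contralaterally, and 66.8% and 74.6% at the tenotomy site. Pygm had the largest share at the tenotomy site of these 4 forms, with 96.7% to 97.7% contralaterally and 82.2% and 79.2% at the tenotomy site.

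The lower shares came with lower totals. Summed enolase TPM was 15.9, 19.8 and 22.1 contralaterally and 3.71 and 3.84 at the tenotomy site, while enolase other than Eno3 summed to 1.05 to 1.65 and to 1.71 in both tenotomy libraries. Phosphofructokinase other than Pfkm summed to 0.284 to 0.324 TPM contralaterally and 0.437 and 0.455 TPM at the tenotomy site. In these 2 steps the other isozymes differed little in TPM beside the muscle form.

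**Figure D4:**
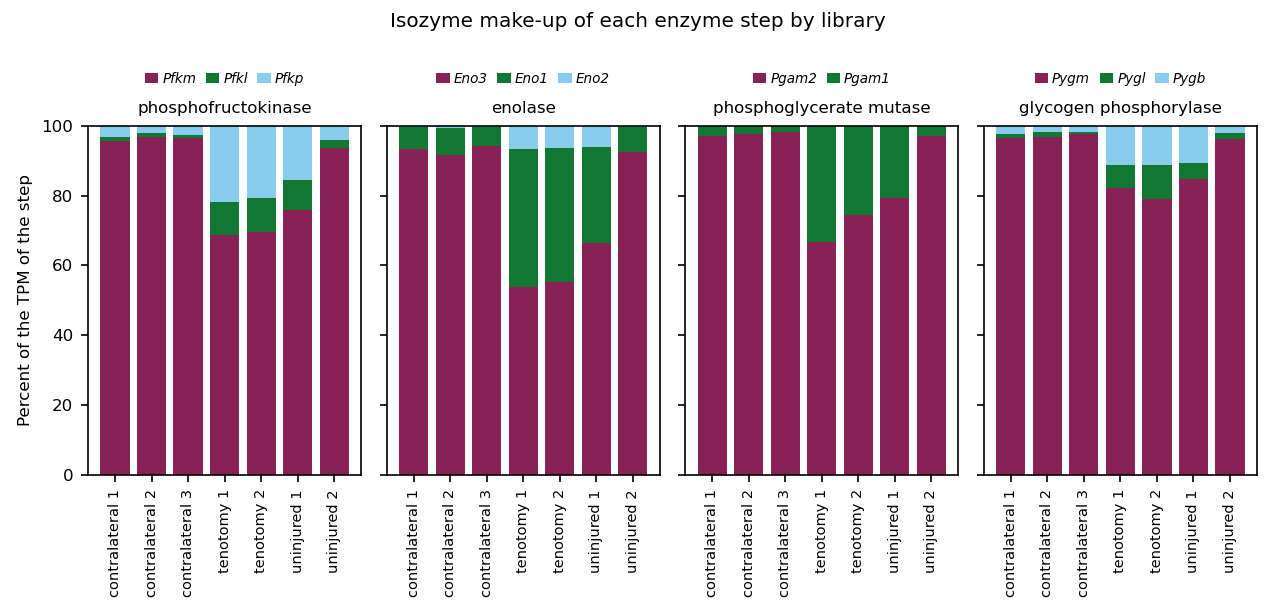
Share of each isozyme in the TPM of its enzyme step, as stacked bars of 100% for each of the 7 libraries. The muscle form is above 90% in the contralateral libraries and in uninjured replicate 2 for all 4 steps shown, and lower at the tenotomy site and in uninjured replicate 1.

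Other genes of the pathway were read from lists of related genes. Of 17 other glycolysis genes, 12 fell, 1 rose and 4 did not pass, with a median log2 fold change of -1.84, where 15.4% of all genes were called lower and 13.6% higher. Gapdh, which oxidises the triose phosphate, had a log2 fold change of -2.55 with edgeR's adjusted p at 0.022. Pkm, the pyruvate kinase of muscle and many other cells, had a log2 fold change of -1.86, Hk2, the insulin-responsive hexokinase, -2.91, and Ldha, the lactate dehydrogenase subunit that predominates in fast muscle, -1.84, and all 3 fell (edgeR adjusted p = 0.0254, 0.0172 and 0.028). Among the largest falls were those of Ldhb, the heart-type lactate dehydrogenase subunit (-3.68), and Fbp2, the muscle fructose bisphosphatase (-3.46). Hk3, a hexokinase of leukocytes, rose by 2.05 from a mean of 0.174 CPM, and Hk1, the hexokinase of most cells, had a log2 fold change of 0.33 and did not pass (edgeR adjusted p = 0.182).

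Of 16 genes of glycogen metabolism, 12 fell, 1 rose and 3 did not pass, with a median log2 fold change of -2.29, against the same 15.4% of all genes lower and 13.6% higher. The gene that rose was Pgm2, a phosphopentomutase related to phosphoglucomutase (0.95, SE 0.30, edgeR adjusted p = 0.0489). Of 5 glucose and lactate transporters, 3 fell and 2 did not pass, beside the 15.4% of all genes that were called lower. Slc2a4, the insulin-responsive glucose transporter of muscle and fat, had a log2 fold change of -2.85 (SE 0.58) and fell, and Slc2a1, the transporter of most cells, had a log2 fold change of -0.50 and did not pass (edgeR adjusted p = 0.0167 and 0.138).

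**Figure D5:**
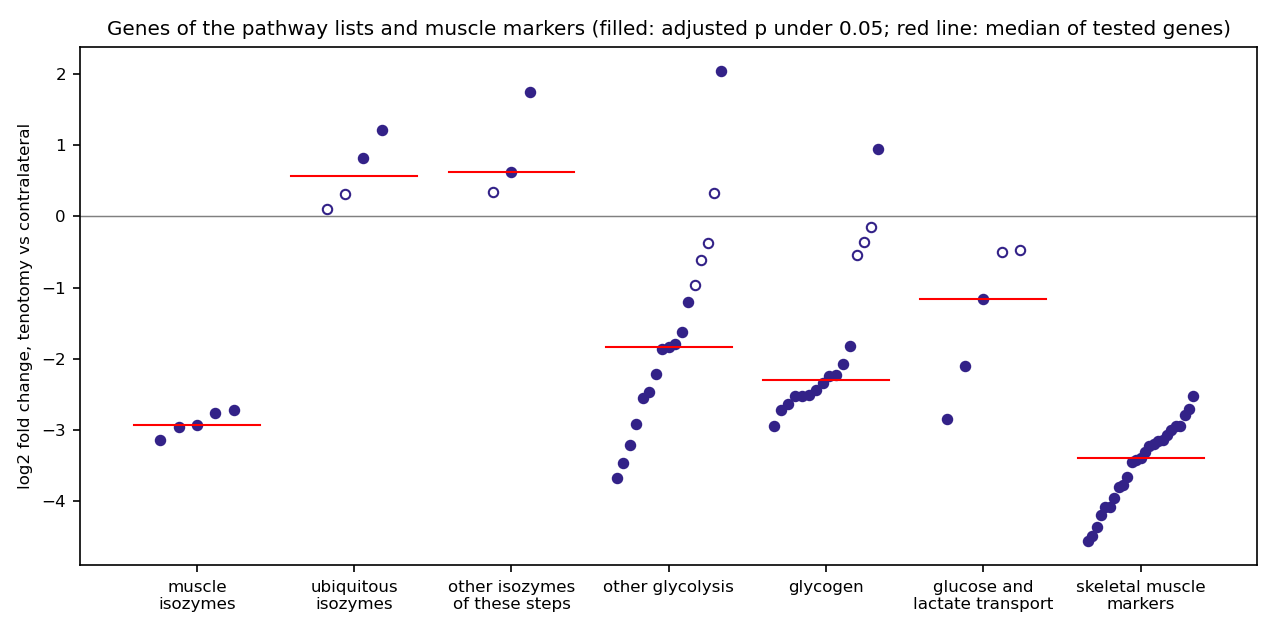
Log2 fold change between the tenotomy site and the contralateral tendon for the tested genes of 6 pathway lists and for 25 skeletal muscle markers, with 1 point per gene. The muscle isozymes, at -2.72 to -3.13, lie within the range of the muscle markers, -2.52 to -4.56.

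Muscle RNA moved with the muscle isozymes. All 25 muscle markers fell at the tenotomy site, with a median log2 fold change of -3.40. Relative to the summed muscle markers of the same library, the muscle isozymes had higher means at the tenotomy site than contralaterally. The difference was 1.35-fold for Eno3, 1.52-fold for Pfkm, 1.55-fold for Pgam2, 1.74-fold for Pygm and 1.79-fold for Aldoa. The sum itself was 25149 to 28032 CPM contralaterally and 2237 and 2257 CPM at the tenotomy site. Any gene that fell less than this sum, or did not change, is therefore higher by this measure. The share of all genes that is higher by it was not computed. The ratios to the summed markers carry no test, and they depend on the markers summed, since the most abundant ones weigh most. Among single markers, Actn3 (-2.52) fell less than all 5 muscle isozymes and Myl2 (-4.56) fell more than all 5. Markers of other cell types are given beside the 13.6% of all genes called higher and the 15.4% called lower. Of the 9 tendon markers, 4 rose at the tenotomy site, 1 fell (Chodl, log2 fold change -1.40) and 4 did not pass the test. Of the 10 macrophage and leukocyte markers, 9 rose at the tenotomy site, and their summed level was 23.4 to 31.1 CPM contralaterally, 114 and 117 CPM at the tenotomy site and 118 and 30.5 CPM in uninjured replicates 1 and 2. Of the 8 cartilage markers, 7 were tested and all 7 rose, with a summed 6.22 to 9.93 CPM contralaterally, 266 and 269 CPM at the tenotomy site and 84.2 and 21.4 CPM in uninjured replicates 1 and 2, and Matn1 was at 0 in all contralateral libraries. Of the 7 adipocyte markers 3 fell, and they summed to 143 to 173 CPM contralaterally, 66.7 and 68.3 CPM at the tenotomy site and 64.9 and 195 CPM in the uninjured libraries. Of the 6 endothelial markers 1 fell, a share near that of all genes, with sums of 52.2 to 63.0 CPM, 57.9 and 46.1 CPM, and 62.4 and 60.6 CPM in the same order of groups. Neutrophil markers summed to 0.487 to 0.866 CPM contralaterally, 1.71 and 1.87 CPM at the tenotomy site and 2.55 and 0.929 CPM in uninjured replicates 1 and 2, with 1 of 2 tested markers higher at the tenotomy site, and S100a8 and Ly6g were at 0 in all contralateral libraries. Erythroid markers summed to 44.3 to 50.3 CPM contralaterally, 69.8 and 65.4 CPM at the tenotomy site and 63.9 and 64.9 CPM in the uninjured libraries, with 2 of 5 tested higher at the tenotomy site. Neural markers summed to 94.1 to 107 CPM contralaterally, 69.4 and 71.8 CPM at the tenotomy site and 49.8 and 151 CPM in uninjured replicates 1 and 2. The sum was thus lower at the tenotomy site than contralaterally, but of 6 tested neural markers 3 rose, Sox10 and Ncam1 among them, and 0 fell. Their median log2 fold change was 0.78. The part of these cell types in the levels of Eno1, Pgam1 and the other ubiquitous isozymes was not tested.

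The muscle isozymes followed 1 pattern across libraries. For the members the genes most like them were taken by Pearson's r of log2 CPM over the 7 libraries, among 2015 genes with a mean log2 CPM of at least 3. The most alike were Slc25a4 for Pfkm (r = 0.999), Gpi1 for Pgam2 (r = 0.999), Rtn2 for Pygm (r = 0.999) and Aes for Aldoa (r = 0.999). For the ubiquitous isozymes they were Ap2b1 for Eno1 (r = 0.993), Dpt for Pgam1 (r = 0.991), Dync1i2 for Pfkl (r = 0.919) and Ddb1 for Pygl (r = 0.889). Among the 5 muscle isozymes r was 0.994 to 0.999, and it was -0.98 between Pgam1 and Pgam2, -0.87 between Eno1 and Eno3, -0.46 between Pygl and Pygm and -0.36 between Pfkl and Pfkm. The libraries fall into 4 with much muscle RNA and 3 with little, and share their scaling, so these values describe that division.

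The calls between the tenotomy site and the contralateral tendon depended on which libraries were in the fit. A fit of these 2 groups alone called 7 members, with 46.1% of all genes called, and the edgeR adjusted p-values ranged from 1.85e-08 (Pfkm) to 8.48e-05 (Eno1). DESeq2 (23.4% of all genes called) and limma-voom (27.9%) on all 7 libraries also called 7 members. With both uninjured libraries kept and any 1 contralateral or tenotomy library left out, however, edgeR called 0 genes and 0 members, while 4538 to 6148 genes had an unadjusted p under 0.05. The log2 fold change of Pfkm was then -2.81 to -3.08, with adjusted p-values of 0.0501 to 0.126. Without uninjured replicate 1 or 2, 7 members were called, with 42.9% and 43.5% of all genes called. By the number in the library titles, which the labels do not call a batch, only tenotomy replicate 1 shares a series with the contralateral libraries. Its difference from their mean in log2 CPM was -2.92 for Pfkm, -3.05 for Eno3, 0.86 for Eno1 and 1.34 for Pgam1. The values for tenotomy replicate 2, of another series, were -2.95, -3.12, 0.79 and 1.03.

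In the comparison of the tenotomy site with uninjured tendon, no member passed the test. The log2 fold changes of the muscle isozymes were -1.72 (Aldoa) to -2.22 (Eno3) with edgeR adjusted p-values of 0.45, and those of the ubiquitous isozymes were 0.04 (Pygl) to 0.54 (Pgam1). By edgeR 0% of all genes were called, although 1741 had an unadjusted p under 0.05. Limma-voom called 0 genes and DESeq2 called 145, or 0.905%, including the 4 members Pfkm, Eno3, Pgam2 and Pygm. In CPM all 5 muscle isozymes were lower, and Eno1 and Pgam1 higher, in both tenotomy libraries than in both uninjured libraries, where 20.4% of all genes were lower and 20.1% higher without overlap.

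The spread of this comparison came from the uninjured libraries. Pfkm measured 24.5 CPM in uninjured replicate 1 and 109 CPM in replicate 2, and Eno3 measured 24.4 and 141 CPM. Without uninjured replicate 1, edgeR called the 5 muscle isozymes, Eno1 and Pgam1, with 25.1% of all genes called, and the log2 fold change of Pfkm was -2.49 (adjusted p = 2.17e-06). Without uninjured replicate 2 it called no member and 14 genes, or 0.083%, and the log2 fold change of Pfkm was -0.34 (adjusted p = 0.91). In these fits the remaining uninjured library is assumed to vary like the other groups. Tenotomy replicate 2 and uninjured replicate 1 share a title series, and between them log2 CPM differed by -0.36 for Pfkm, -0.49 for Eno3, 0.26 for Eno1 and 0.06 for Pgam1.

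Contralateral and uninjured tendon did not differ in any member by edgeR's test. The log2 fold changes of the muscle isozymes were 0.84 (Pgam2) to 1.16 (Pfkm), higher contralaterally, with edgeR adjusted p-values of 0.28 to 0.433, and those of Eno1 and Pgam1 were -0.39 and -0.67 (adjusted p = 0.267 and 0.223). By edgeR 0% of all genes were called, with 3084 at an unadjusted p under 0.05, while limma-voom called 0 and DESeq2 called 223, none of them a member. Eno1 and Pgam1 were lower in all 3 contralateral libraries than in both uninjured ones, and Pfkm was higher, where 16.6% of all genes were lower and 18.9% higher without overlap. The other muscle isozymes overlapped, since uninjured replicate 2 lay within the contralateral range. Without uninjured replicate 1 no member was called, with 0.617% of all genes called, and the log2 fold change of Pfkm was 0.46. Without uninjured replicate 2 the same 7 members were called as in the comparison with the tenotomy site, with 32% of all genes called, and the value for Pfkm was 2.61 (edgeR adjusted p = 3e-06). No contralateral library shares a title series with an uninjured one, so series and group cannot be told apart here. The 3 comparisons share libraries in pairs and are not independent of each other.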

How the data were processed

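RNA was measured in 7 libraries in 3 groups. The estimated counts and TPM were deposited by the authors for 103639 transcripts, with lengths and effective lengths, per the file headers. The submitters' processing notes name FastQC 0.11.4, kallisto and GRCh38, a human build, although the transcript IDs are those of mouse. Annotation and settings are not given in the sources used here. The labels' protocols name a TruSeq kit.

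Transcript IDs were matched without version to GENCODE M21 (GRCm38): 101510 matched, 57625 with the same version, and 2129 were kept as single features. Counts were summed per gene and rounded. A second gene ID named Aldoa (7 to 89 counts) was kept apart. Features were filtered with filterByExpr (minimum count 10), scaled by TMM and tested with edgeR 4.0.16 (quasi-likelihood, all 7 libraries, no covariate) in R 4.3.3, with Benjamini-Hochberg adjustment over all genes and a threshold of 0.05. The standard error is the size of the log2 fold change divided by the square root of F. Levels in CPM used TMM-scaled totals, and log2 CPM a prior count of 2. TPM were summed per gene. Scripts were tested on simulated data.

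Genes were named by a rule: the 10 isozymes, fixed pathway genes, the 3 largest rises and 3 largest falls among called pathway genes between tenotomy and contralateral, and for each isozyme its nearest genes by correlation, of which the first is printed. Some genes the rule names are not reported here. Gpi1 also belongs to the pathway lists. The isozymes and lists were chosen with earlier results of these data known. Alternatives were other scalings, filters and units, DESeq2 1.42.0, limma-voom (limma 3.58.1), fits of 2 groups, added pseudogene copies and leaving out each library. Promoters are RefSeq windows of GRCm38.p6, and protein sequences were not used here. Lists of neutrophil, erythroid and neural markers were also summed.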

Additional observations from a re-analysis of the deposited data

How the results depend on the processing

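The 7 members called between the tenotomy site and the contralateral tendon numbered 7 under every scaling, filter, tool and unit tried, but with length-scaled TPM Pfkl replaced Eno1. Upper quartile scaling moved the median of all genes by 0.11 on the log2 scale in that comparison. Genes called there numbered 4643, against 7385 in the fit of only the groups compared, and 0 to 7336 with each library left out, while members called ranged from 0 to 7. For tenotomy against uninjured, genes called numbered 145 with DESeq2 and 15 with no filter, and 0 to 4275 with each library left out; members called were 4 with DESeq2 and 0 to 7 with each library left out. For contralateral against uninjured, genes called numbered 223 with DESeq2 and 337 with no filter, and 0 to 5393 with each library left out, and members called 0 to 7. Alternatives for the isozyme log2 ratios were set against the larger SD of the 2 groups compared. Leaving out 1 library of 2 or 3 cannot move a group mean that far, so such alternatives could not count as moved. Nor could added copies for Pfkm to Pfkl and Pygm to Pygl, to which no copies were added. Of 95 alternatives, 88 moved less than that SD, these among them, and 0 changed sign. The 7 others, all between tenotomy and contralateral, were Pfkm to Pfkl at -3.05 with CPM and -2.60 with 0.5 TPM added, Eno3 to Eno1 at -3.92 with CPM, -3.03 with 0.5 TPM added and -3.88 without the short Eno1 transcript, Pgam2 to Pgam1 at -3.10 and Pygm to Pygl at -2.58 with 0.5 TPM added. The log2 fold change changed sign for Pfkl between contralateral and uninjured (-0.038 with upper quartile scaling, -0.78 with length-scaled TPM, and -0.065 to 0.112 with each library left out, below 0 without contralateral replicate 2 and without uninjured replicate 2), for Pfkl between tenotomy and uninjured (-0.091 with length-scaled TPM) and between tenotomy and contralateral (-0.032 to 0.223 with each library left out, below 0 without tenotomy replicate 2), for Hk1 between tenotomy and contralateral (-0.17 with length-scaled TPM), for Eno1 between contralateral and uninjured (0.00092 with length-scaled TPM) and for Pygl between tenotomy and uninjured (-0.154 to 0.224 with each library left out, below 0 without tenotomy replicate 2). The cause was not tested. The alternative without that transcript was chosen after seeing the data. No paired analysis was possible because the labels give no replicate numbers, and replicates are numbered in accession order. Pfkl and Pygl, with 48 to 102 counts per library, limit what can be said of small differences.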
